A study of Mus musculus with 8 samples.

Results

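The endothelin system was described in the hypertrophic mouse left ventricle (LV) through 6 genes, Edn1, Edn3, Ednra, Ednrb, Ece1 and Ece2. They were chosen by name as the ligands, receptors and converting enzymes of the pathway, without use of their levels, but with earlier results of these data known. All 6 have a row among the 46040 genes of the count table. RNA of whole LV tissue was sequenced from 8 male C57BL/6 mice of 5 to 7 months on day 14 of angiotensin II (angII) infusion at 0.1 mg/kg/h from osmotic minipumps, given to raise the pressure load of the heart. There were 4 libraries of VEGFR-1 TK-/- mice, whose Flt1 allele lacks the intracellular tyrosine kinase domain in every cell of the body, and 4 of littermate controls. Every mouse received angII and had survived to day 14, so that neither an effect of angII itself nor the hearts of mice that died earlier could be seen in these libraries. The comparison of the genotypes asks whether loss of VEGFR-1 signalling alters RNA levels in the hypertrophic LV.

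The labels of the 8 samples contradict each other on the genotype, since genotype tag and library name point to one and the title of the same sample to the other. The grouping here follows tag and library name, hence the names control-tagged and TK-/- tagged. Differences are given as TK-/- tagged minus control-tagged and would all change sign under the titles. The sources also differ on library preparation, with ribosomal RNA depletion in the labels and poly-A selection in the methods of the study. The word cardiomyocyte stands in shortened form in the library names, while the tissue label and the methods give the LV. Markers of cells other than cardiomyocytes were well above the test minimum: all 12 markers of blood endothelium were tested, and their summed level was 2468 to 3190 normalized CPM, the count of a gene scaled to a common library total. All 9 markers of ventricular cardiomyocytes were tested, with a summed level of 57454 to 95457. The 5 atrial markers, 3 of them tested, summed to 7.43 to 18.8, with Dkk3 at 2.69 to 13.5, Myl4 at 2.90 to 4.86, Myl7 at most 1.23, Sln at most 0.27 and Bmp10 at most 0.15, and Myh2 and Myh4 of skeletal muscle had no count in any library.

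Endothelins are short peptides cut out of larger precursors. Furin-type proteases release big endothelin, and the endothelin converting enzymes, membrane metalloproteases encoded by Ece1 and Ece2, cut it into the active peptide. Endothelin-1, the product of Edn1, is made mainly by endothelial cells and is among the strongest vasoconstrictors known, and angII is a known inducer of Edn1 transcription. The ETA receptor, encoded by Ednra, sits on smooth muscle cells and cardiomyocytes and acts through Gq, phospholipase C and calcium release to cause contraction and hypertrophic growth. The ETB receptor, encoded by Ednrb, sits largely on endothelial cells, where it releases nitric oxide and prostacyclin and clears endothelin-1 from the circulation. Endothelin-3, the product of Edn3, binds ETB in preference to ETA and is best known for its part in the development of neural crest cells.

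No difference between the groups beyond the spread of the mice was detected for any of the 6 genes. The library totals behind the CPM were adjusted by TMM factors. Every gene that reached a CPM of 1 in 2 or more libraries was tested with the quasi-likelihood test of edgeR, a model of all 13542 such genes at once. All 6 passed this filter. A gene was called at a false discovery rate (FDR, the Benjamini-Hochberg adjusted p) under 0.1 and a difference of 1.5-fold or more in either direction. This called 1 of the 13542 genes (0.00738%), Flt1 itself, and 0 of the 6 endothelin genes. At an unadjusted p under 0.05 the quasi-likelihood test took 1213 of the 13542 genes (8.96%) and again 0 of the 6, and the likelihood ratio test of edgeR and DESeq2 also took 0 of the 6. The 2 groups overlapped for each of the 6 genes, where they did not overlap for 4.98% of all genes tested. Of the 6 log2 fold changes 3 were positive and 3 negative, with a median of -0.03, and the median over all genes tested was -0.00119.

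The targeted gene Flt1 lay at 67.4, 68.4, 56.9 and 84.3 normalized CPM in the control-tagged libraries and at 144, 149, 169.6 and 168 in the TK-/- tagged ones. Every TK-/- tagged library was above every control-tagged one (log2 fold change 1.19, SE 0.12, FDR 0.00808 in edgeR's quasi-likelihood test). Counts per gene do not separate the exons of the deleted domain from the rest, so that this difference does not settle which of the labels is right.

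Edn1, the ligand known for vasoconstriction, was a low-abundance RNA in these hearts. Its level was 6.29, 7.04, 3.03 and 3.60 normalized CPM in control-tagged replicates 1 to 4 and 8.04, 4.44, 4.82 and 4.54 in TK-/- tagged replicates 1 to 4. Replicates 1 and 2 of the control-tagged group and replicate 1 of the TK-/- tagged group were high, and the other 5 libraries were low. Control-tagged replicates 3 and 4 lay below every TK-/- tagged library and TK-/- tagged replicate 1 above every control-tagged one, and between them the groups overlapped. The means were 4.99 ± 1.97 and 5.46 ± 1.73 normalized CPM (SD, n = 4 each), which gave a log2 fold change of 0.13 (SE 0.29, 95% interval -0.51 to 0.78). The unadjusted p of edgeR's quasi-likelihood test was 0.660 and its FDR 0.923, and an exact 2-sided permutation test over the 8 libraries gave p = 0.657, where the smallest p that 4 against 4 libraries allow is 0.0286. The sign rested on single libraries, since the log2 fold change was -0.12 without TK-/- tagged replicate 1 and -0.05 without control-tagged replicate 3. Edn1 had 45 to 97 counts in the control-tagged libraries and 50 to 99 in the others, so that counting alone gave each value a coefficient of variation of 10.1% to 14.9%. The interval spans a ratio of 0.702 to 1.71, so that a lower or a higher level within this range is compatible with these data.

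Edn3, the ligand with preference for ETB, had the widest spread of the 6 genes. It lay at 19.99, 14.1, 10.02 and 11.5 normalized CPM in the control-tagged libraries and at 6.18, 37.1, 10.7 and 11.8 in the TK-/- tagged ones. The lowest and the highest of all 8 values both belonged to the TK-/- tagged group, 6.01-fold apart, and the other 6 libraries lay between them. The means of 13.9 ± 4.39 and 16.4 ± 13.99 normalized CPM (SD, n = 4 each) gave a log2 fold change of 0.23 (SE 0.45, 95% interval -0.74 to 1.21, FDR 0.906 in edgeR's quasi-likelihood test, exact permutation p = 0.971). TK-/- tagged replicate 2 alone set the direction, and without it the log2 fold change was -0.54 (FDR 0.941). With 76 to 418 counts per library, counting error accounted for a coefficient of variation of at most 11.5%. Edn2, the third endothelin gene of the genome, had at most 1 count in any library and was not tested.

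Pigment cells and glia derive from the neural crest, whose precursors respond to Edn3 through ETB, so their markers were set beside its values. They mark cells that respond to the ligand and not a known source of Edn3 RNA. Of 5 melanocyte markers 1 was tested, Dct, at 5.95 to 19.7 normalized CPM, while Tyr and Tyrp1 had no count in any library. The summed level of the melanocyte list was 9.60 to 19.96 in the control-tagged libraries and 6.30 to 14.9 in the TK-/- tagged ones, and the lowest sum was that of replicate 2 of the TK-/- tagged group, the library with the highest Edn3. The 8 markers of Schwann cells and glia, 6 of them tested, summed to 23.2 to 30.7 and to 18.4 to 33.7, again lowest in that library. The part of these cells in the Edn3 values was not tested.

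**Figure D1:**
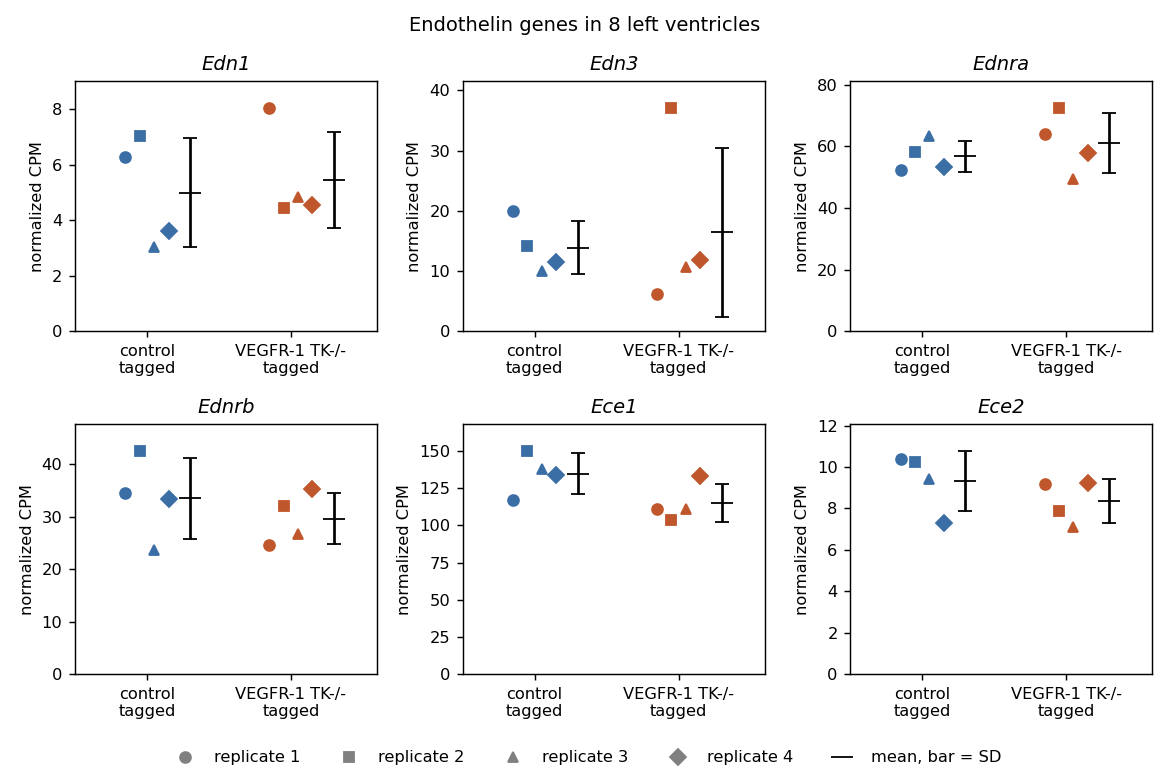
Normalized CPM (vertical axes, linear and starting at 0) of the 6 endothelin genes in the 4 control-tagged (blue) and 4 VEGFR-1 TK-/- tagged (orange) libraries, with 1 symbol per replicate number and the mean ± SD beside each group. The groups overlap in all 6 panels, and the Edn3 value of 37.1 in TK-/- tagged replicate 2 stands above the other 7.

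Ednra, the receptor for contraction and growth, was even across the mice. Its level was 52.3, 58.2, 63.4 and 53.3 normalized CPM in the control-tagged libraries and 64.0, 72.5, 49.5 and 57.9 in the TK-/- tagged ones. The highest and the lowest library were both TK-/- tagged, only 1.46-fold apart, and all 4 control-tagged libraries lay between them. The means of 56.8 ± 5.07 and 61.0 ± 9.72 normalized CPM (SD, n = 4 each) gave a log2 fold change of 0.10 (SE 0.12, 95% interval -0.16 to 0.36, FDR 0.835 in edgeR's quasi-likelihood test, exact permutation p = 0.514). The interval corresponds to a ratio between 0.894 and 1.29, the narrowest range but that of Ece1.

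Ednrb, the receptor for clearance and vasodilation, lay at 34.4, 42.5, 23.6 and 33.4 normalized CPM in the control-tagged libraries. In the TK-/- tagged libraries it lay at 24.5, 32.0, 26.7 and 35.2. Control-tagged replicates 2 and 3 were the highest and the lowest of the 8 libraries, and all TK-/- tagged values lay between them. The means were 33.5 ± 7.73 and 29.6 ± 4.89 normalized CPM (SD, n = 4 each), a log2 fold change of -0.18 (SE 0.17, 95% interval -0.55 to 0.20). edgeR's quasi-likelihood test gave an FDR of 0.790 and the exact permutation test p = 0.514. Single libraries moved the Ednrb difference both ways. Leaving out control-tagged replicate 3 took it to -0.32 (unadjusted p 0.0440, FDR 0.606 in the quasi-likelihood test). In that fit 1106 of 13502 genes had an unadjusted p under 0.05. Leaving out control-tagged replicate 2 instead took the Ednrb difference to -0.04 (FDR 0.955 in the quasi-likelihood test).

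Since both receptors bind the same peptide, their ratio within a library was also compared, in counts per kilobase (kb) of exon, where library size cancels. The ratio of Ednra to Ednrb was 1.18, 1.07, 2.09 and 1.24 in the control-tagged libraries and 2.03, 1.76, 1.45 and 1.28 in the TK-/- tagged ones. Per kb of annotated exon, Ednra RNA was the more abundant in all 8 libraries. The length of the transcripts expressed was not measured, and the order could depend on it where the ratio was near 1. Of the 4 control-tagged ratios 3 were below every TK-/- tagged one, while control-tagged replicate 3 had the highest of all. The geometric means were 1.35 and 1.6, a difference of 0.25 on the log2 scale (mean log2 ratio 0.43 ± 0.43 and 0.68 ± 0.30, SD, n = 4 each), with an exact 2-sided permutation p of 0.314. Without control-tagged replicate 3 the difference was 0.46 and the exact permutation p 0.0571. The difference without any 1 library ran from 0.14 to 0.46, so that single libraries moved it by over 1.5 times, namely control-tagged replicate 2 (0.14) and TK-/- tagged replicate 1 (0.14) besides control-tagged replicate 3.

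**Figure D2:**
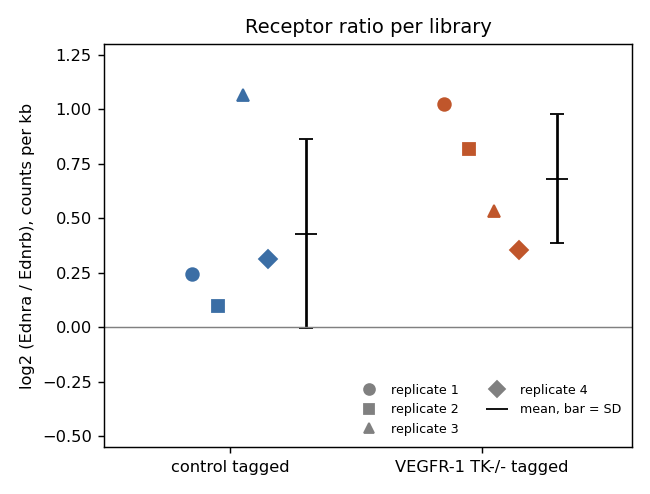
Log2 of the ratio of Ednra to Ednrb counts per kb of exon (vertical axis) in each library of the 2 groups, with the mean ± SD beside them. The line at 0 is where both receptors are equal per kb of annotated exon. All 8 libraries lie above 0, and control-tagged replicate 3 lies above the other control-tagged libraries.

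Ece1, the main endothelin converting enzyme, was the most abundant of the 6 genes and had the smallest p. Its level was 116.7, 149.8, 138 and 133.9 normalized CPM in the control-tagged libraries and 111, 103.8, 111 and 133 in the TK-/- tagged ones. Replicates 1 to 3 of the TK-/- tagged group were below every control-tagged library, and its replicate 4 lay among them, so that the groups overlapped. The means of 134.6 ± 13.7 and 114.8 ± 12.7 normalized CPM (SD, n = 4 each) gave a log2 fold change of -0.23 (SE 0.11, 95% interval -0.47 to 0.01). The unadjusted p was 0.0552 in edgeR's quasi-likelihood test, 0.0626 in its likelihood ratio test and 0.0512 in DESeq2, and the exact permutation p was 0.0571. The FDR of the quasi-likelihood test was 0.560, and 9.85% of all genes tested had a smaller p than Ece1. The unadjusted p of the quasi-likelihood test was 0.0232 without control-tagged replicate 1 and 0.0172 without TK-/- tagged replicate 4. It rose to 0.144 and 0.0848 without control-tagged replicates 2 and 4, and to 0.113 and 0.108 without TK-/- tagged replicates 1 and 3. The lowest FDR under any alternative was 0.424.

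Markers of the endothelium, where Ece1 is prominent, were also lower in part in the TK-/- tagged group. Of the 12 markers of blood endothelium 6 were lower in the TK-/- tagged group at an unadjusted p under 0.05 and none was higher, with a median log2 fold change of -0.27, where 5.64% of all genes tested were lower and 3.32% higher at that p. Their summed level was 2602 to 3190 normalized CPM in the control-tagged libraries and 2468 to 2745 in the TK-/- tagged ones, and the ranges overlapped. The 5 markers of endocardium, 1 of them lower at that p, summed to 126.9 to 172 and to 96.3 to 114.7, ranges that did not overlap. In bulk tissue, fewer cells of a type and less RNA per cell cannot be told apart, and the part of the endothelial markers in the Ece1 values was not tested.

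Ece2, the converting enzyme that works at acidic pH inside the cell, was at 10.4, 10.2, 9.42 and 7.28 normalized CPM in the control-tagged libraries. In the TK-/- tagged libraries it was at 9.18, 7.90, 7.11 and 9.25. The 3 highest values were control-tagged, but control-tagged replicate 4 was nearly as low as the lowest library of the other group. The means of 9.33 ± 1.44 and 8.36 ± 1.04 normalized CPM (SD, n = 4 each) gave a log2 fold change of -0.16 (SE 0.15, 95% interval -0.50 to 0.18, FDR 0.788 in edgeR's quasi-likelihood test, exact permutation p = 0.257). At 89 to 141 counts per library, counting alone gave a coefficient of variation of 8.42% to 10.6%.

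**Figure D3:**
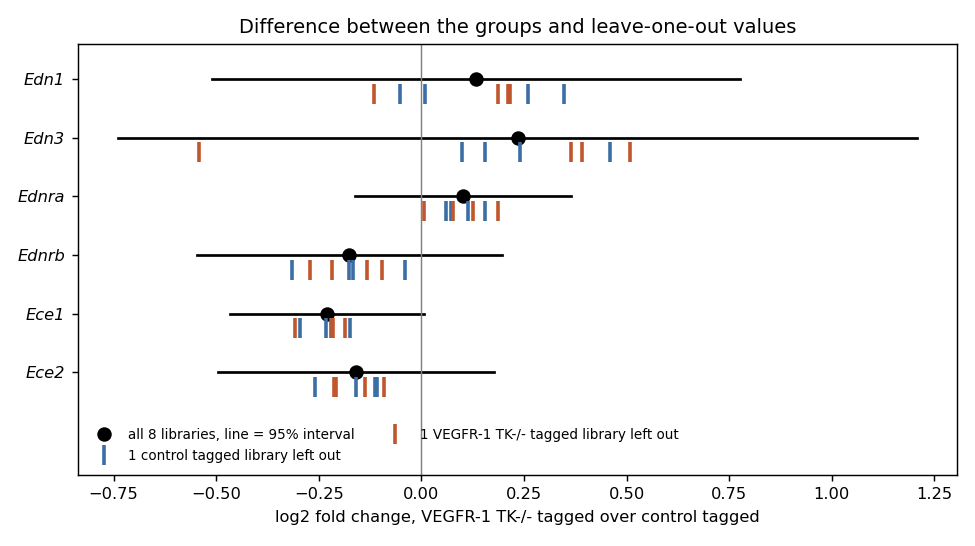
Log2 fold change of each endothelin gene, VEGFR-1 TK-/- tagged over control-tagged (horizontal axis), from edgeR's quasi-likelihood fit of all 8 libraries (black points, with the 95% interval) and with 1 library left out (blue ticks for a control-tagged library, orange for a TK-/- tagged one). Every interval includes 0, and the tick farthest from its point is that of Edn3 at -0.54, without TK-/- tagged replicate 2.

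The 6 genes differed widely in how much they varied between mice of one group. The pooled SD of log2 CPM within the groups was 0.15 for Ece1, 0.19 for Ednra, 0.21 for Ece2, 0.30 for Ednrb, 0.49 for Edn1 and 0.82 for Edn3. The 2 ligands varied most of the 6. Genes of a similar level, within 0.5 on the log2 scale, give the fair comparison: 99.5% of them had a smaller SD than Edn3, 93.6% a smaller one than Edn1 and 90.6% a smaller one than Ednrb. For Ednra that share was 66.7%, for Ece1 50.7% and for Ece2 40.4%, near the middle of the genes of their level. The spread of Edn3 and Edn1 was above that of most genes of their level, whose median SD was 0.20 and 0.28.

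Levels of different genes were compared only after division by annotated exon length, and the length of the transcripts expressed was not measured. Ece1 had 23.5 ± 3.05 normalized CPM per kb (mean ± SD of all 8 libraries), Ednra 10.8 ± 1.37 and Ednrb 7.40 ± 1.48. Edn3 had 3.69 ± 2.36, Edn1 2.44 ± 0.81 and Ece2 1.73 ± 0.25 normalized CPM per kb. The main converting enzyme and both receptors were therefore more abundant as RNA than either ligand, and Ece1 exceeded Ece2 in every library. Ece1 was above Ednra in 8 of 8 libraries by a mean of 2.19-fold, with ranges that did not overlap (19.6 to 28.3 and 9.05 to 13.2). Ednra was above Ednrb in 8 of 8 (1.47-fold) and Ednrb above Edn3 in 7 of 8 (2.26-fold). The lower end of the order was less clear. Edn3 was above Edn1 in 7 of 8 libraries, but the log2 ratio of 0.47 was smaller than its SD of 0.96 over the libraries, and in TK-/- tagged replicate 1 the order was turned around, at 1.5 and 3.76 normalized CPM per kb. Edn1 was above Ece2 in 7 of 8, with a log2 ratio of 0.44 and an SD of 0.43, so that the 2 did not differ clearly beyond their spread.

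**Figure D4:**
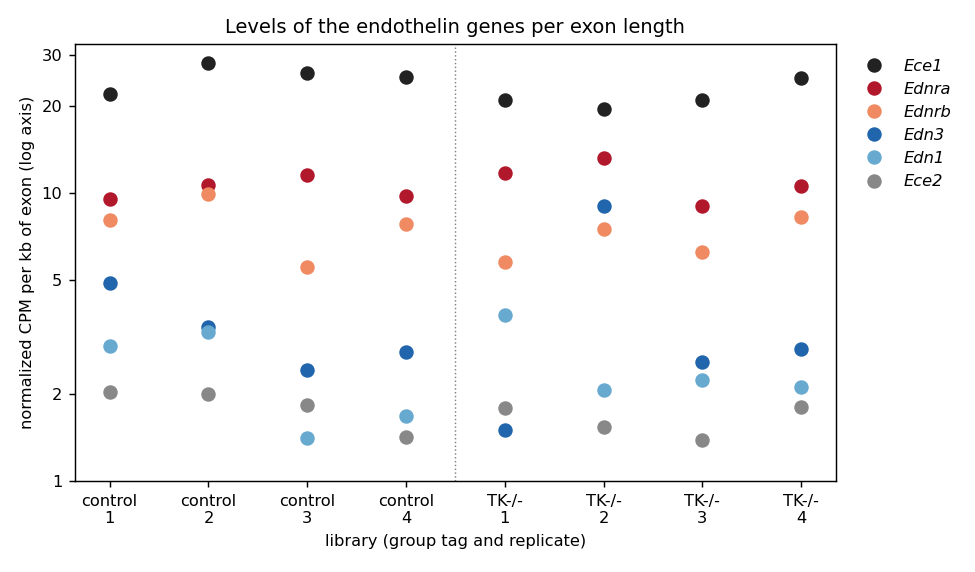
Normalized CPM per kb of exon (vertical axis, log scale) of the 6 endothelin genes in each of the 8 libraries (horizontal axis, by group tag and replicate). Ece1 lies above the other 5 genes in every library, and Edn3 ranges from 1.5 to 9.02 within the TK-/- tagged group.

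The loci bear on how the counts can be read. On GRCm38, with GENCODE M21, Edn1 (ENSMUSG00000021367) lies on the plus strand of chromosome 13 from 42301476 to 42307990 and has 2139 exonic bases. Edn3 (ENSMUSG00000027524) lies on the plus strand of chromosome 2 from 174760619 to 174784042, with 4113 exonic bases. The receptor genes are both on minus strands, Ednra (ENSMUSG00000031616) on chromosome 8 from 77663031 to 77724464 with 5476 exonic bases, and Ednrb (ENSMUSG00000022122) on chromosome 14 from 103814625 to 103844402 with 4266. Ece1 (ENSMUSG00000057530) lies on the plus strand of chromosome 4 from 137862237 to 137965229, with 5300 exonic bases. Ece2 (ENSMUSG00000022842) lies on the plus strand of chromosome 16 from 20629828 to 20646485, with 5110 exonic bases. All 6 are protein coding.

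Ece2 is the member with the least certain count. It shares 2937 exonic bases, 57.5% of its exon length, with Gm49333, a gene that M21 annotates on the same strand. Gm49333 has no row in the count table, which was made on GENCODE M16. How reads of the shared exons were assigned is therefore not known. Exons of Ednra share 91 bases (1.7%) with 4933431K23Rik on the opposite strand, which was at 4.0 to 7.81 normalized CPM against 49.5 to 72.5 for Ednra. Edn1 shares 35 bases (1.6%) with Gm47118 on the opposite strand, which has no row in the table. Ece1 shares no exonic base with the antisense gene Gm13012 in its locus. Whether strand was used in the counting is not given in the sources used here, and without strand the reads of antisense partners cannot be told apart.

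The 6 genes did not move together from mouse to mouse. Over the 8 libraries the Pearson r of log2 normalized CPM between pairs of them ran from -0.29 (Edn3 and Ece1) to 0.48 (Edn3 and Ednrb), and it was -0.18 between the 2 receptors. These are descriptions of 8 points that share their libraries. The genes whose pattern over the 8 libraries was closest to each member were Uck1, Ifi47 and Tapbp for Edn1 (r 0.96, 0.95 and 0.95), and Fam160a1, Apool and Nudt13 for Edn3 (r 0.97, 0.96 and 0.94). The 3 genes closest to Edn3 were all highest in TK-/- tagged replicate 2, as Edn3 was. For Ednra they included Slc38a7 and Mtfr2 (r 0.94 and 0.93), and for Ednrb they were Eda2r, Slc24a2 and Rdh10 (r 0.95 each). For Ece1 they were Svopl, Gnai3 and App (r 0.98, 0.97 and 0.96), and for Ece2 Lmnb2, Susd3 and P4ha3 (r 0.96 each). These are the highest values among 13542 genes over 8 points and carry no test.

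Genes around the endothelins were read from 6 lists by their place in the pathway. The lists were chosen with earlier results of these data known, so that their counts are descriptions and carry no test. Of 79 genes tested 0 were called, and 15 had an unadjusted p under 0.05, 14 of them lower and 1 higher in the TK-/- tagged group. Over all 13542 genes 5.64% were lower and 3.32% higher at that p. Of the 79 log2 fold changes 59 were negative, with a median of -0.14, where 6816 of all 13542 were negative. The genes were measured in the same libraries, so that their signs are not independent. For 6 of the 79 the groups did not overlap, all of them lower in the TK-/- tagged group, where over all genes tested they did not overlap for 4.98%, 342 genes lower and 333 higher.

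Genes that make and remove the ligands gave no unadjusted p under 0.05 in edgeR's quasi-likelihood test of all 8 libraries, and at most 2 with 1 library left out. Over all genes tested 8.96% had such a p with all 8 libraries. In the fit that gave 2, without control-tagged replicate 1, 1356 of 13488 genes did. The list of 12 proteases and related genes had 9 tested members, of which 8 had a negative log2 fold change (median -0.22). Furin, which releases big endothelin, was at 168 ± 9.37 and 166.7 ± 11.8 normalized CPM (SD, n = 4 each). Mme, the neutral endopeptidase that degrades endothelins, had a log2 fold change of 0.25, the only positive one of the list. Cma1, which encodes a mast cell protease, had the smallest p of the list. It was at 2.89 ± 1.43 and 1.67 ± 0.64 normalized CPM (SD, n = 4 each), a log2 fold change of -0.78 (SE 0.39, FDR 0.591 in edgeR's quasi-likelihood test). The 6 mast cell markers, 4 of them tested, summed to 17.6 to 23.3 normalized CPM in the control-tagged libraries and to 14.4 to 18.7 in the TK-/- tagged ones, and their part in the Cma1 values was not tested.

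Among 15 genes known to regulate Edn1 transcription, 1 was lower at an unadjusted p under 0.05, a share near the 5.64% of all genes. This was Nfkb1, the precursor of an NF-kB subunit, at 67.7 ± 8.08 and 57.0 ± 3.91 normalized CPM (SD, n = 4 each, log2 fold change -0.25, FDR 0.522 in edgeR's quasi-likelihood test). Its 2 groups did not overlap, which held for 4.98% of all genes tested. Nfkb1 was named for its p, which itself favours separated groups. The list had a median log2 fold change of -0.04. Its count of 1 became 0 without TK-/- tagged replicate 2 or 3 or without control-tagged replicate 1 or 3, and 3 without TK-/- tagged replicate 1. Without control-tagged replicate 1 there was 1 higher gene in its place. Klf2, which represses Edn1 in endothelium under flow, and Jun, a subunit of AP-1, had log2 fold changes of -0.33 and -0.01 with an FDR of 0.677 and 0.987 in the same test.

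The G proteins and phospholipases that carry the receptor signal had 4 lower and 1 higher gene among 16 at an unadjusted p under 0.05. Over all genes tested 5.64% were lower and 3.32% higher at that p. Of the 16 log2 fold changes 14 were negative (median -0.17). Itpr2, an inositol trisphosphate receptor of cardiomyocytes, was at 22.3 ± 1.67 and 17.4 ± 1.31 normalized CPM (SD, n = 4 each), a log2 fold change of -0.35 (SE 0.10, unadjusted p 0.00537 and FDR 0.453 in edgeR's quasi-likelihood test). Gnai2, an inhibitory G protein subunit, was at 466 ± 93.2 and 356 ± 21.9 (log2 fold change -0.39, FDR 0.468). Gna13 and Gnaq, the latter the subunit through which ETA activates phospholipase C, had a log2 fold change of -0.20 each (FDR 0.522 and 0.539). In all 4 of these genes the lowest control-tagged library was above the highest TK-/- tagged one. These genes were named for a p under 0.05, which itself favours separated groups, so this is no further evidence. Over all genes tested, picked by no p, the groups did not overlap for 4.98%. The higher gene was Plcb2, named after its values were seen, at 2.77 ± 0.46 and 3.82 ± 0.69 normalized CPM (SD, n = 4 each, FDR 0.556). The count of lower genes was 2 without TK-/- tagged replicate 2 or 3, or without control-tagged replicate 2 or 4.

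The kinases and calcium effectors further downstream had a median log2 fold change near 0 (0.03), with 12 of 18 values positive. No gene of this list was higher at an unadjusted p under 0.05. Over all genes tested 6726 of 13542 log2 fold changes were positive. The 1 lower gene of 18 was also a share near the 5.64% of all genes. It was Ptk2, the focal adhesion kinase, at 50.8 ± 5.10 and 41.3 ± 3.38 normalized CPM (SD, n = 4 each, log2 fold change -0.30, FDR 0.468 in edgeR's quasi-likelihood test). Its groups did not overlap. Prkca, which encodes PKCα, had a log2 fold change of 0.02 (FDR 0.954) and Camk2d, a calcium-dependent kinase of cardiomyocytes, one of -0.07 (FDR 0.845). Both were named after their values were seen.

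All 13 tested receptor regulators, a mixed list with Jag1 and Rgs, arrestin and caveolin genes, had a negative log2 fold change (median -0.27). Of these, 5 were lower at an unadjusted p under 0.05, where 5.64% of all genes tested were. Cav1, the caveolin of endothelium and smooth muscle in whose membrane pits endothelin receptors reside, was at 442 ± 61.7 and 342 ± 27.9 normalized CPM (SD, n = 4 each), a log2 fold change of -0.37 (SE 0.12, FDR 0.464 in edgeR's quasi-likelihood test). Rgs5, a brake on G protein signalling in pericytes, was at 811 ± 182 and 581 ± 91.4 (log2 fold change -0.48, FDR 0.476). The β-arrestin genes Arrb1 and Arrb2 had log2 fold changes of -0.33 and -0.36 (FDR 0.492 and 0.521), and Rgs4, named after its values were seen, one of -0.34 (FDR 0.521). For each of these 5 genes the groups overlapped. The count of 5 became 3 without TK-/- tagged replicate 2 and without TK-/- tagged replicate 3.

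The vasodilator arm of endothelial ETB showed the same sign throughout, with 8 of 8 tested log2 fold changes negative (median -0.28). Of these, 3 were lower at an unadjusted p under 0.05, where 5.64% of all genes tested were. Nos3, the endothelial nitric oxide synthase, was at 99.8 ± 10.2 and 79.8 ± 14.3 normalized CPM (SD, n = 4 each), a log2 fold change of -0.32 (FDR 0.521 in edgeR's quasi-likelihood test). Gucy1b3, a subunit of the nitric oxide receptor of smooth muscle, had one of -0.40 (FDR 0.522), and Ptgs1, a cyclooxygenase of the prostacyclin route, one of -0.40 (FDR 0.522). The count of 3 rested on single libraries. It was 0 without TK-/- tagged replicate 2 and 1 without TK-/- tagged replicate 1 or 3 or without control-tagged replicate 2, 3 or 4. The count over all genes that were lower at this p also moved from 764 to 462 without TK-/- tagged replicate 2.

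Markers of vessel wall cells, and of several other cell types, mostly had negative log2 fold changes, as these 2 lists did. Of 12 markers of smooth muscle cells and pericytes, 1 of which is Rgs5 itself, 9 had a negative log2 fold change (median -0.35). At an unadjusted p under 0.05, 5 were lower and none was higher, where 5.64% of all genes tested were lower and 3.32% higher. Their summed level was 1763 to 2395 normalized CPM in the control-tagged libraries and 1324 to 1880 in the TK-/- tagged ones. These ranges overlapped, and the lowest sum was that of TK-/- tagged replicate 2. The 9 markers of ventricular cardiomyocytes had a median log2 fold change of 0.16, and 2 of them were higher at that p. Fibroblast markers (10) summed to 2453 to 2982 and to 1612 to 2919, and markers of macrophages and other leukocytes (10) to 286 to 336 and to 206 to 296. Lymphatic markers (6) summed to 111 to 141 and to 89.3 to 144.6. Log2 fold changes were negative for 10 of 10 fibroblast, 6 of 6 lymphatic and 8 of 10 leukocyte markers. No fibroblast or lymphatic marker and 1 leukocyte marker was lower at that p. Of the 6 tested markers of Schwann cells and glia 2 were negative. The part of these markers in the values of the pathway genes was not tested.

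**Figure D5:**
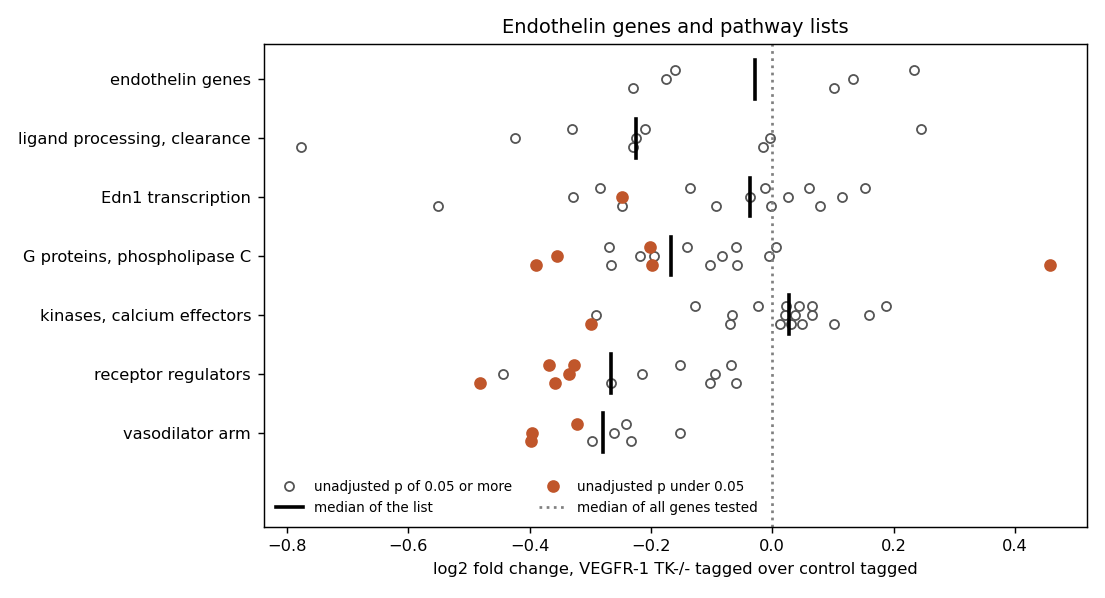
Log2 fold change (horizontal axis, VEGFR-1 TK-/- tagged over control-tagged) of the 6 endothelin genes and of the 79 tested pathway genes by list, filled where the unadjusted p of edgeR's quasi-likelihood test was under 0.05, with a bar at the median of each list and a dotted line at the median of all genes tested. All 13 receptor regulators and all 8 genes of the vasodilator arm lie below 0, while the endothelin genes lie on both sides of it.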

How the data were processed

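Total RNA of the LVs was sequenced after library preparation with a TruSeq kit. The authors trimmed reads with Trim Galore 0.4.4 (Phred cutoff 30), aligned them to GRCm38 with STAR 2.5.4b (mismatch share 0.04, up to 10 alignments per read) and counted them on GENCODE M16 genes with featureCounts. The handling of strand and of multiply aligned reads is not given in the sources used here. The authors deposited 1 table of raw whole-number counts per gene, without normalization, and all of its sample columns were used.

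Replicate numbers came from the labels, which do not say more on the animals, so that p-values measure the spread between these samples. Control-tagged libraries held 12349639 to 16239670 counts and TK-/- tagged ones 11449137 to 13505888, so that a CPM of 1 stands for 11.4 to 16.2 reads. Intervals of counting error cover counting only. TMM factors were 0.917 to 1.12. Genes were tested with edgeR 4.0.16 (glmQLFit, glmQLFTest, no covariates) in R 4.3.3, with log2 CPM at a prior count of 2. The study used the likelihood ratio test of edgeR, which was run as an alternative, as were DESeq2 1.42.0, RLE size factors, a robust fit, other filters, a replicate block and each library left out. The counts of list genes under each setting were added after the data were seen. Exon lengths and overlaps came from GENCODE M21. Figures and permutation tests used Python 3.11.15.

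The members and gene lists were chosen with earlier results of these data known. Named were the 6 members, Flt1, up to 4 genes per list with an unadjusted p under 0.05 or otherwise the 1 with the smallest p, and the 3 genes most like each member by Pearson r. For 1 gene covered by this rule the values are not reported here. Plcb2, Rgs4, Furin, Mme, Klf2, Jun, Prkca and Camk2d were named outside this rule, after their values were seen. The older symbols Gucy1a3, Gucy1b3 and Adrbk1 stand in the table. Of the list genes, Ecel1, Kel and Ptgs2 were too low to be tested. Further marker lists, for red blood cells and skeletal muscle, summed to 309 to 766 and to 2.08 to 3.23 normalized CPM over the 8 libraries.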

Additional observations from a re-analysis of the deposited data

Results flagged for a closer look

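In 4 of 44 groups of 4 libraries examined, 1 library lay farther from the rest than Dixon's 95% limit for 4 values allows, by its gap to the next library as a share of the whole range. Chance alone gives about 1 in 20. Among the endothelin genes this was Edn1 in TK-/- tagged replicate 1, at 8.044 normalized CPM with the next library at 4.819 (gap share 0.894). The nearest below the limit among them were the ratio of Ednra to Ednrb in control-tagged replicate 3, with a gap share of 0.8288, and Edn3 in TK-/- tagged replicate 2, with one of 0.818. Among the pathway genes it was Itpr2 in TK-/- tagged replicate 2, at 15.45 with the next at 17.88, Gnai2 in control-tagged replicate 3, at 605.4 with the next at 432, and Ptgs1 in TK-/- tagged replicate 4, at 10.92 with the next at 7.427. The causes were not tested.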

How the results depend on the processing

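Each of the 6 log2 fold changes was recomputed under 15 alternatives. Of 90 values 87 kept their direction and their side of the threshold. The other 3 changed sign, Edn1 without TK-/- tagged replicate 1 (-0.12) and without control-tagged replicate 3 (-0.05), and Edn3 without TK-/- tagged replicate 2 (-0.54). With 1 library left out at a time the log2 fold change ran from -0.12 to 0.35 for Edn1, from -0.54 to 0.51 for Edn3, from 0.01 to 0.19 for Ednra, from -0.32 to -0.04 for Ednrb, from -0.31 to -0.17 for Ece1 and from -0.26 to -0.09 for Ece2. The FDR over all alternatives lay between 0.424 and 0.9998. The count of genes called depended on the tool and filter, at 1 in the quasi-likelihood test, 53 in the likelihood ratio test, 32 in DESeq2, 23 with no filter on low counts and 1 to 3 with 1 library left out (2 without control-tagged replicate 1, 3 without control-tagged replicate 2 and 3 without control-tagged replicate 4). The cause was not tested, and none of these calls was an endothelin gene. The count of 4 lower genes among G proteins and phospholipases was 2 in the likelihood ratio test, with no filter and with the replicate block. With that block the count of 1 lower gene among regulators of Edn1 transcription was 2.

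Deviations from the group means correlated at r of -0.03, 0.03, 0.34 and -0.06 between same-numbered libraries of the groups. The 0.34 of the replicates 3 was the highest of all pairs, and differently numbered pairs ran from -0.49 to 0.3. Such correlations cannot settle whether the numbers pair the samples. With the replicate block the log2 fold changes were 0.16 for Edn1, 0.02 for Edn3, 0.09 for Ednra, -0.16 for Ednrb, -0.23 for Ece1 and -0.16 for Ece2, 1 gene was called, and the receptor ratio differed by 0.25 (exact sign-flip permutation p = 0.375). Depth limits Edn1 most, at 45 to 99 counts per library and a counting coefficient of variation of up to 14.9%, followed in its lowest library by Edn3 (11.5%) and by Ece2 (10.6%).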
